A study of Mus musculus with 11 samples.

Results

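The genes described here encode potassium channel subunits. They were taken by name alone, as the rows of the count table whose symbol is Kcn, then letters, then a number, apart from some symbols that are not reported here, and 89 of the 55401 genes counted met that rule. By the class of channel, 39 encode voltage-gated pore subunits (10 of them silent modifier subunits), 14 inward rectifiers, 13 two-pore domain channels, 8 channels gated by calcium or sodium inside the cell, and 15 auxiliary subunits that bind a pore without forming one.

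The libraries were made from cells sorted by FACS from islets of 4 male C57BL6/J mice, fed chow, that carried a rat insulin promoter (RIP)-Cre, a STOP-tdTomato reporter and Nnat-EGFP. In these mice tdTomato appears where the rat insulin promoter has driven Cre, which marks beta cells, and EGFP follows the promoter of *Nnat*, an imprinted gene. The number in each label was taken as the mouse. On that reading each mouse gave 1 library labelled NNAT-positive beta cells and 1 labelled NNAT-negative beta cells. Mice 1 to 3 also gave 1 library of non-beta cells, which makes 11 libraries. The labels give an age of 10 weeks. The study's results give a younger age for the sorted cells, and its methods give, unless otherwise stated, a range that starts at 10 weeks. All groups carried the same transgenes, so no group is free of Cre or of the reporters.

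Potassium leaving the cell holds the membrane of a resting beta cell at a negative voltage. When glucose is metabolised, ATP-sensitive potassium channels close, the cell depolarises, calcium enters through voltage-gated channels and insulin granules fuse. Other potassium channels then shape the response. Delayed rectifier and calcium-activated channels end each action potential, two-pore channels carry a steady leak, and inward rectifiers coupled to G proteins let transmitters silence the cell. Auxiliary subunits set how fast the pores open, close and inactivate.

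Total counts were 30420352 to 43238376 per library, so 3 counts, the level taken here as the floor of detection, correspond to at most 0.102 CPM, the unit of level used here, which is the count scaled to the same total in each library after TMM normalisation of library sizes. Levels are given in the order of mice 1 to 4, or 1 to 3 for non-beta cells. The 6 beta cell markers were higher in beta cells and the markers of alpha, delta and pancreatic polypeptide cells were higher in the non-beta libraries. The non-beta libraries also held RNA of other cells. Summed markers of acinar cells were 9142 to 35160 CPM there against 5.958 to 1288 CPM in beta cells. Those of endothelial cells were 1961 to 2267 CPM there against 0.11 to 7.81 CPM in beta cells, and those of pericytes and fibroblasts 1956 to 4454 CPM against 0.061 to 3.62 CPM. Fewer cells of a type and less RNA per cell cannot be told apart in such libraries. *Nnat* itself had 50.5, 46.4, 46 and 101 CPM in cells labelled NNAT-positive and 74.8, 80.8, 66.5 and 153 CPM in cells labelled NNAT-negative, so in each of the 4 mice the positive label went with the lower value (adjusted p = 0.444 by edgeR), and the study's supplementary table names these fractions the other way round. The 2 beta cell groups are therefore given by their labels throughout.

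Of the 89 members, 61 were expressed in at least 1 fraction, taken as a mean of at least 1 CPM. The libraries labelled NNAT-positive expressed 38, those labelled NNAT-negative 36 and the non-beta libraries 56. All 3 fractions expressed 31, the non-beta fraction alone expressed 22, and 4 were expressed in both beta cell fractions and not in the non-beta one, namely *Kcnf1*, *Kcng3*, *Kcnh5* and *Kcnip2*. *Kcnj5*, a subunit of channels opened by G proteins, reached a mean of 1 CPM only in the libraries labelled NNAT-positive, with 1.01, 0.07195, 2.62 and 0.502 CPM in cells labelled NNAT-positive and 0, 0, 1.47 and 0.41 CPM in cells labelled NNAT-negative, and so differed between mice in both fractions. The remaining 28 stayed below 1 CPM in every fraction, and 9 of them had no count in any library (*Kcna7*, *Kcne1*, *Kcne2*, *Kcnj1*, *Kcnk15*, *Kcnk18*, *Kcnk7*, *Kcnmb3* and *Kcnv2*). Another 11 had counts in non-beta cells and none in any of the 8 beta cell libraries.

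The levels of these genes were dominated by *Kcnk16*, a two-pore channel that opens at alkaline pH and carries a leak current in beta cells. It had 465, 534, 558 and 390.5 CPM in cells labelled NNAT-positive, 448, 505.5, 517 and 384 CPM in cells labelled NNAT-negative and 276.5, 365 and 385 CPM in non-beta cells. Divided by its exonic length of 2.377 kb, this was 199.96 CPM per kb in beta cells, and *Kcnk16* held 46.7 to 54.6% of the summed CPM per kb of all members in the beta cell libraries and 41.3 to 49.0% in the non-beta libraries. Next per kb in beta cells came *Kcnmb2* with 43.7, *Kcnh2* with 23.7, *Kcnh6* with 15.0, *Kcnip1* with 13.2, *Kcnk1* with 12.3 and *Kcnn3* with 9.32 CPM per kb. In the non-beta libraries *Kcnk16* was followed by *Kcnk3* with 20.4, *Kcnmb2* with 18.8, *Kcnh2* with 17.1, *Kcnk1* with 14.9, *Kcnh6* with 9.70, *Kcnk12* with 7.87 and *Kcnip3* with 6.19 CPM per kb. *Kcnk3* ranked 2 in non-beta and 26 in beta cells. By class, auxiliary subunits took 16.6 to 19.5% of the summed level in beta cell libraries and 12.1 to 14.8% in non-beta libraries, and inward rectifiers 1.48 to 2.30% and 3.29 to 4.12%.

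**Figure D1:**
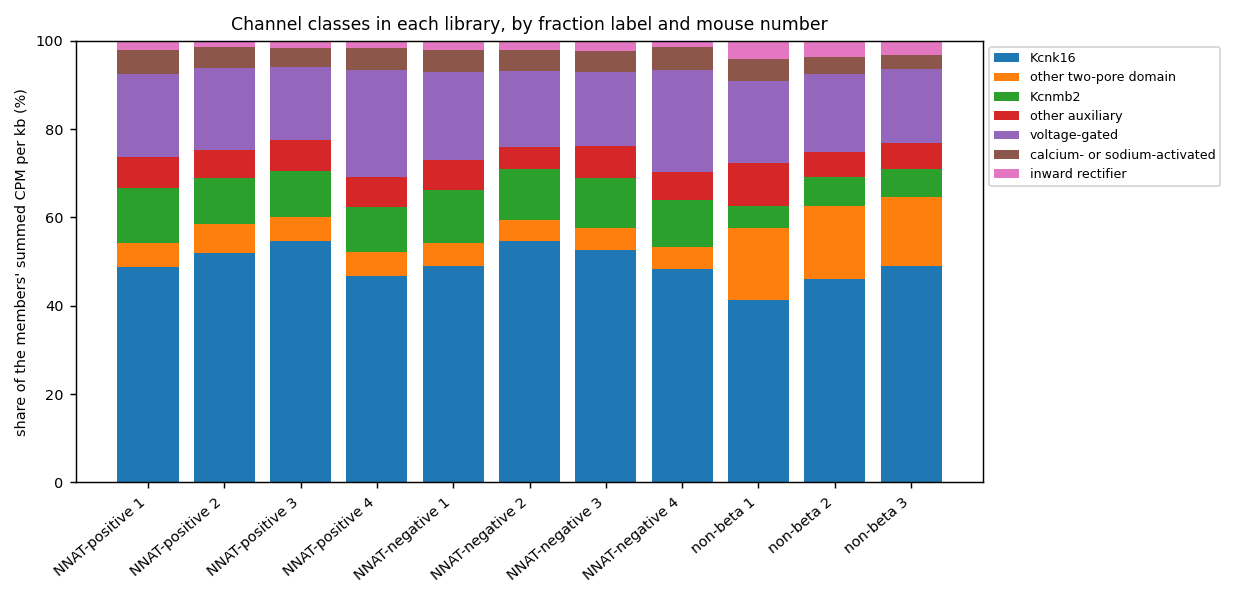
Share of the members' summed CPM per kb (y axis, %) taken by each class in each of the 11 libraries (x axis, by fraction label and mouse number), with *Kcnk16* and *Kcnmb2* drawn apart from the rest of their classes. *Kcnk16* holds 41.3 to 54.6% in every library, and the other two-pore channels take a larger part in the 3 non-beta libraries.

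Beta cells were compared with non-beta cells by the quasi-likelihood test of edgeR on all 11 libraries, with the mouse as a block and the mean of the beta cell fractions set against the non-beta libraries. A gene was called at a Benjamini-Hochberg adjusted p under 0.01 and a change of more than 2-fold. Of the 66 members with enough counts to be tested, 11 were higher in beta cells, or 16.7% where 6.22% of all 17424 tested genes were. The number higher in non-beta cells was 24, or 36.4% where 18.9% of all tested genes were. The median log2 fold change was -1.17 over the tested members and -0.10 over all tested genes. Without normalisation beyond total counts the median of all genes moved to -0.27, and all 35 calls remained. The 11 calls towards beta cells also remained with DESeq2 and with each mouse left out. Among the 24 calls towards non-beta cells, leaving out mouse 1 ended those of *Kcnc4*, *Kcnab2*, *Kcnmb1*, *Kcnj10*, *Kcnmb4*, *Kcnt2* and *Kcne3* (17 members called), leaving out mouse 3 calls that included those of *Kcnn4*, *Kcnk2*, *Kcnmb1*, *Kcnmb4* and *Kcne3* (18 members called), leaving out mouse 2 those of *Kcnj2*, *Kcnmb1* and *Kcnmb4*, and leaving out mouse 4 that of *Kcnmb1*. Over all 17424 tested genes, 3294 were higher in non-beta cells with all mice. Without mouse 1, 2, 3 and 4 the numbers were 2663, 2922, 2609 and 3188, of 16913 to 18222 tested genes. DESeq2 did not call *Kcng4*, *Kcnt2*, *Kcne3* and *Kcna6*.

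**Figure D2:**
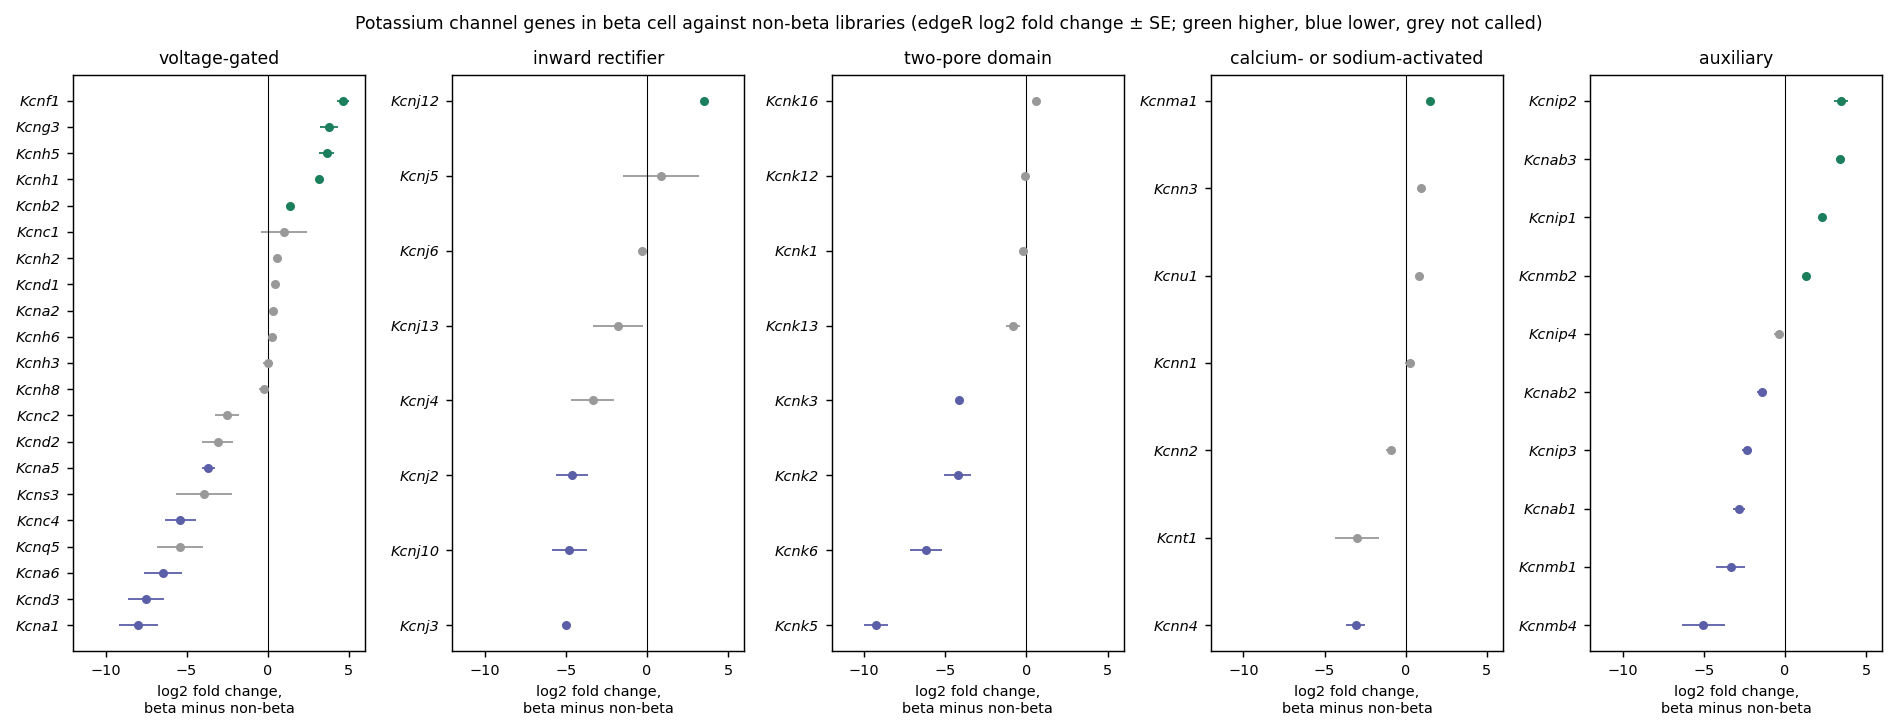
Log2 fold change of beta cell against non-beta libraries (x axis, edgeR, bars are the SE) for 54 of the 58 tested members with counts in both groups, in panels by channel class; green points were called higher in beta cells, blue points lower and grey points neither. The 8 tested members at 0 in all libraries of either group are not drawn, and the called points lie on both sides of 0 in every class but the two-pore channels, whose calls are all below 0.

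The voltage-gated class had 5 members higher in beta cells, 7 higher in non-beta cells and 15 of the 27 tested that were not called. The clearest rise was of *Kcnh1*, a member of the ether-a-go-go family. It had 58.2, 61.7, 60.5 and 34.9 CPM in cells labelled NNAT-positive, 50.2, 46.9, 62.4 and 32.5 CPM in cells labelled NNAT-negative and 4.01, 6.94 and 9 CPM in non-beta cells. Every beta cell library lay above every non-beta library (log2 fold change 3.13, SE 0.19, adjusted p = 3.71e-07). Its close relative *Kcnh5* was lower in level, with 2.9 to 8.97 CPM in the beta cell libraries and 0.28, 0.397 and 0.403 CPM in the non-beta libraries, and was also higher in beta cells (log2 fold change 3.63, SE 0.47, adjusted p = 0.000101). Within the same gene family the ERG-type genes *Kcnh2* and *Kcnh6*, whose channels repolarise excitable cells, were abundant in all 3 fractions. *Kcnh2* had 89.7 to 137.5 CPM in the beta cell libraries and 74.3, 81.2 and 92.4 CPM in the non-beta libraries, passed the adjusted p but not the 2-fold limit (log2 fold change 0.56, SE 0.071, adjusted p = 8.91e-05) and overlapped between the groups. *Kcnh6* had 34.2 to 95 CPM in beta cells and 33, 34.6 and 35.7 CPM in non-beta cells (log2 fold change 0.25, adjusted p = 0.143).

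*Kcnb2* encodes a delayed rectifier of the beta cell, and silent modifier subunits such as those of *Kcnf1*, *Kcng3* and *Kcng4* give no current alone and join delayed rectifier subunits in mixed channels. *Kcnb2* had 13.7 to 25.6 CPM in the beta cell libraries and 5, 9.82 and 6.18 CPM in the non-beta libraries and was called higher in beta cells (log2 fold change 1.35, SE 0.22, adjusted p = 0.000515). Among the modifiers, *Kcnf1* had 20.7, 22.1, 13.2 and 18.7 CPM in cells labelled NNAT-positive, 25.8, 21.8, 17.1 and 21.9 CPM in cells labelled NNAT-negative and 0.302, 1.4 and 0.806 CPM in non-beta cells. This was the largest log2 fold change towards beta cells among called members (log2 fold change 4.63, SE 0.37, adjusted p = 2.9e-06). *Kcng3* was higher in beta cells as well, with 1.95 to 6.58 CPM in the beta cell libraries and 0.2155, 0.05295 and 0.457 CPM in the non-beta libraries (log2 fold change 3.77, SE 0.58, adjusted p = 0.00033, with a log2 fold change of 4.53 without mouse 3). *Kcng4*, in contrast, had no count in any beta cell library and 3, 3.52 and 2.02 CPM in the non-beta libraries, at least 27.78-fold higher than the floor of 3 counts per library.

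The Shaker genes *Kcna1*, *Kcna5* and *Kcna6*, which form fast-activating voltage-gated pores, were all called higher in non-beta cells. *Kcna5* had 1.43, 2.06, 2.12 and 1.23 CPM in cells labelled NNAT-positive, 0.546, 0.518, 0.638 and 1.585 CPM in cells labelled NNAT-negative and 14.4, 17.5 and 8.95 CPM in non-beta cells (log2 fold change -3.66, SE 0.40, adjusted p = 2.67e-05). *Kcna1* had 0 to 0.109 CPM in beta cells and 1.72, 4.05 and 4.27 CPM in non-beta cells (adjusted p = 0.000327). *Kcna6* had 0 to 0.408 and 6.68, 4.95 and 8.9 CPM (adjusted p = 0.00139), and shares 2355 exonic bases with Gm26673 on the opposite strand. These 3 genes lie on the minus strand of chromosome 6 (GRCm38), *Kcna5* at 126532551 to 126535412, *Kcna1* at 126640397 to 126646384 and *Kcna6* at 126708329 to 126740674. *Kcna2*, on chromosome 3, was not called and had 11.25 to 32.1 CPM in beta cells and 15.8, 17.4 and 22.6 CPM in non-beta cells. Voltage-gated genes called towards non-beta cells also included *Kcnd3*, an A-type channel gene, with 0 to 0.277 CPM in the beta cell libraries and 6.51, 5.08 and 3.57 CPM in the non-beta libraries (adjusted p = 0.000256), and *Kcnc4* with 0 to 0.525 CPM in the beta cell libraries and 5.04, 4.98 and 2.96 CPM in the non-beta libraries (log2 fold change -5.38, adjusted p = 0.00099, with a log2 fold change of -6.12 without mouse 3). *Kcnd3* overlaps 165 exonic bases of the antisense gene *Kcnd3os*.

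Among inward rectifiers 1 of the 10 tested members was higher in beta cells and 4 were higher in non-beta cells. *Kcnj12*, a strong inward rectifier, had 18.1, 13.6, 14.2 and 9.54 CPM in cells labelled NNAT-positive, 18.15, 19, 19.9 and 10.1 CPM in cells labelled NNAT-negative and 1.68, 1.06 and 1.8 CPM in non-beta cells (log2 fold change 3.51, SE 0.21, adjusted p = 4.16e-07). *Kcnj2* encodes a channel of the same kind and went the other way, with 0 to 1 CPM in the beta cell libraries and 2.72, 4.53 and 2.63 CPM in the non-beta libraries (log2 fold change -4.62, SE 0.98, adjusted p = 0.00251, with a log2 fold change of -5.35 without mouse 3). That call was lost without the mouse block and without replicate 2. *Kcnj3*, a subunit of the channels that G proteins open, had 0.337, 0.6, 0.8375 and 0.822 CPM in cells labelled NNAT-positive, 0.614, 0.518, 0.971 and 0.765 CPM in cells labelled NNAT-negative and 18.6, 20.6 and 19.4 CPM in non-beta cells. It had the smallest adjusted p among inward rectifiers higher in non-beta cells (log2 fold change -4.97, SE 0.27, adjusted p = 2.04e-07), and shares 1621 exonic bases with Gm26794 on the opposite strand. The partner subunit *Kcnj6* was not called and its groups overlapped, with 5.12 to 11 CPM in beta cells and 6.81, 12.6 and 11.8 CPM in non-beta cells (log2 fold change -0.31, adjusted p = 0.296). *Kcnj8*, the pore of the ATP-sensitive channel of vessel walls, had no count in any beta cell library and 8.945, 7.65 and 6.4 CPM in the non-beta libraries, at least 74.87-fold higher than the floor. Its usual partner *Abcc9* had 0 to 0.191 CPM in beta cells and 62.3, 41.6 and 28 CPM in non-beta cells. *Kcnj10*, a glial rectifier, had 0 to 0.648 and 5.82, 2.25 and 5.24 CPM (log2 fold change -4.79, adjusted p = 0.00478, with a log2 fold change of -4.03 without mouse 1 and -6.41 without mouse 3). The part of pericytes and fibroblasts, whose summed markers are given above, in these values was not tested.

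Two-pore channels gave 4 members higher in non-beta cells, 0 higher in beta cells and 5 not called among the 9 tested. At an unadjusted p under 0.05, edgeR had *Kcnk10* and *Kcnk16* on the beta cell side, and DESeq2 called *Kcnk10* there. *Kcnk3*, an acid-sensitive leak channel, had 4.55, 6.74, 6.41 and 5.59 CPM in cells labelled NNAT-positive, 3.89, 2.98, 3.44 and 2.76 CPM in cells labelled NNAT-negative and 72.7, 99.1 and 71.9 CPM in non-beta cells (log2 fold change -4.17, SE 0.15, adjusted p = 1.89e-08). It shares 229 exonic bases with Gm9899 on the opposite strand. *Kcnk5*, another pH-sensitive leak channel, had 0 to 0.131 CPM in beta cells, which is 8 counts over 8 libraries, and 13.15, 8.5 and 9.46 CPM in the non-beta libraries (adjusted p = 3.98e-05). *Kcnk6* had 0 to 0.355 CPM in the beta cell libraries and 11.7, 6.59 and 5.19 CPM in the non-beta libraries (log2 fold change -6.20, adjusted p = 0.000358, with a log2 fold change of -5.58 without mouse 1 and -6.94 without mouse 3). *Kcnk2*, a channel opened by membrane stretch, had 0 to 1.25 CPM in the beta cell libraries and 8, 7.36 and 9.03 CPM in the non-beta libraries (log2 fold change -4.24, adjusted p = 0.00155, with a log2 fold change of -5.51 without mouse 2). Against these, *Kcnk16* was above its non-beta level by less than 2-fold (log2 fold change 0.57, SE 0.083, adjusted p = 0.000219), and its groups overlapped, with 384.4 CPM in the lowest beta cell library and 384.9 CPM in the highest non-beta library. *Kcnk1* (log2 fold change -0.21, adjusted p = 0.313) and *Kcnk12* (log2 fold change -0.076, adjusted p = 0.68) were not called. *Kcnk5* and *Kcnk16* lie on the minus strand of chromosome 14 with 79.6 kb between them.

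Of the channels gated by calcium or sodium, *Kcnma1*, the pore of the large-conductance BK channel, was higher in beta cells. It had 112, 122, 110.5 and 97.1 CPM in cells labelled NNAT-positive, 109.7, 121.5, 122 and 99.7 CPM in cells labelled NNAT-negative and 33.5, 54.8 and 38.3 CPM in non-beta cells (log2 fold change 1.49, SE 0.11, adjusted p = 1.71e-06), and shares 1016 exonic bases with 4930519K11Rik on the opposite strand. The small-conductance gene *Kcnn3* had 74.9 to 119.6 CPM in the beta cell libraries and 54.8, 59.4 and 45.8 CPM in the non-beta libraries, a rise just under 2-fold (log2 fold change 0.94, SE 0.11, adjusted p = 5.14e-05) that was called when mouse 2 was left out. *Kcnn4*, the intermediate-conductance channel of blood and epithelial cells, was higher in non-beta cells with 0.502 to 2.53 CPM in the beta cell libraries and 20.5, 4.69 and 7.55 CPM in the non-beta libraries (log2 fold change -3.10, adjusted p = 0.000965, with a log2 fold change of -3.77 without mouse 2). Summed markers of macrophages and leukocytes were 183 to 441 CPM in the non-beta libraries and 0 to 4.75 CPM in beta cells. Those of ductal cells were 290.8 to 463.1 CPM and 214.5 to 274.6 CPM, with 3 of the 4 markers higher in non-beta cells. The part of these cells in the *Kcnn4* values was not tested. *Kcnt2*, gated by sodium, had no count in beta cells and 5.22, 1.67 and 1.85 CPM in non-beta cells, at least 28.45-fold higher than the floor and at least 17.2-fold higher without mouse 1. *Kcnn2*, a small-conductance gene, had 1.41 to 4.57 CPM in the beta cell libraries and 5.91, 4.05 and 3.2 CPM in the non-beta libraries and was not called (log2 fold change -0.93, adjusted p = 0.0189).

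Auxiliary genes had the largest share of calls, 4 higher in beta cells and 7 higher in non-beta cells among 12 tested, and in 3 of their families the members went opposite ways. BK channels are tuned by the *Kcnmb* subunits. *Kcnmb2*, which makes the BK current inactivate, had 158, 141, 141 and 112 CPM in cells labelled NNAT-positive, 143, 140, 146.5 and 112.5 CPM in cells labelled NNAT-negative and 44.75, 67.5 and 64.2 CPM in non-beta cells (log2 fold change 1.31, SE 0.12, adjusted p = 9.89e-06). *Kcnmb1*, the subunit of smooth muscle, had 0 to 1.02 CPM in the beta cell libraries and 6.34, 3.47 and 2.04 CPM in the non-beta libraries (log2 fold change -3.34, adjusted p = 0.00934), and *Kcnmb4*, mainly known from neurons, had 0 to 0.34 CPM in the beta cell libraries and 0.366, 1.64 and 1.21 CPM in the non-beta libraries (log2 fold change -5.03, adjusted p = 0.00828, with a log2 fold change of -3.67 without mouse 2 and -6.16 without mouse 3). Both of these calls lie near the threshold and were lost when single mice were left out.

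The *Kcnip* genes encode calcium-binding partners of A-type channels. *Kcnip1* had 94.35, 89.9, 96.5 and 67.7 CPM in cells labelled NNAT-positive, 82.1, 67.7, 97.1 and 60.6 CPM in cells labelled NNAT-negative and 12.4, 22.2 and 19.1 CPM in non-beta cells (log2 fold change 2.31, SE 0.17, adjusted p = 1.76e-06). *Kcnip2* was also higher in beta cells, with 4.62 to 10.9 CPM in the beta cell libraries and 0.237, 1.43 and 0.7525 CPM in the non-beta libraries (log2 fold change 3.46, adjusted p = 6.65e-05, with a log2 fold change of 4.10 without mouse 2). *Kcnip3*, whose protein can also act as a repressor of transcription, was higher in non-beta cells, with 2.31 to 6.545 CPM in the beta cell libraries and 19.9, 24.7 and 21.15 CPM in the non-beta libraries (log2 fold change -2.34, SE 0.29, adjusted p = 6.99e-05). *Kcnip4* was not called and its groups overlapped (log2 fold change -0.39, adjusted p = 0.246). *Kcnmb1* lies inside *Kcnip1* on chromosome 11, at 33963013 to 33973641 on the plus strand within 33629339 to 33993152 on the minus strand, shares no exonic base with it, and went the other way.

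The *Kcnab* genes encode the cytoplasmic beta subunits of Shaker channels. *Kcnab3* had 18.7, 23.1, 22.7 and 23.3 CPM in cells labelled NNAT-positive, 19.4, 10.6, 21.75 and 19.7 CPM in cells labelled NNAT-negative and 2.05, 0.874 and 2.795 CPM in non-beta cells (log2 fold change 3.40, SE 0.29, adjusted p = 4.75e-06). *Kcnab1* (0.304 to 1.685 CPM in the beta cell libraries and 10.7, 3.76 and 3.9 CPM in the non-beta libraries) and *Kcnab2* (1.77 to 7.47 CPM in the beta cell libraries and 20.2, 8.39 and 8.84 CPM in the non-beta libraries) were both higher in non-beta cells, with log2 fold changes of -2.83 and -1.41. *Kcnab3* shares 147 exonic bases with the antisense gene *Kcnab3os*, and *Kcnab1* 201 with A330015K06Rik. *Kcne3* and *Kcne4*, small single-span subunits, had no count in any beta cell library. *Kcne4* had 25, 5.9 and 8.44 CPM in the non-beta libraries, at least 128.1-fold higher than the floor and at least 70.05-fold higher without mouse 1, and *Kcne3* had 2.67, 1.06 and 2.5 CPM, at least 20.29-fold higher.

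Across the 20 gene families set by symbol, 5 had members called in both directions: *Kcnab*, *Kcng*, *Kcnip*, *Kcnj* and *Kcnmb*. In each of these 5 the member with the highest mean CPM in beta cells was called towards beta cells. The level and the call use the same beta cell values, so this is no separate result. Pearson's correlation of log2 CPM over the 61 expressed members was 0.937 to 0.991 between beta cell libraries, 0.897 to 0.944 between non-beta libraries and 0.384 to 0.625 between beta cell and non-beta libraries. These values are across genes of libraries that partly share a mouse and are a description only.

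**Figure D3:**
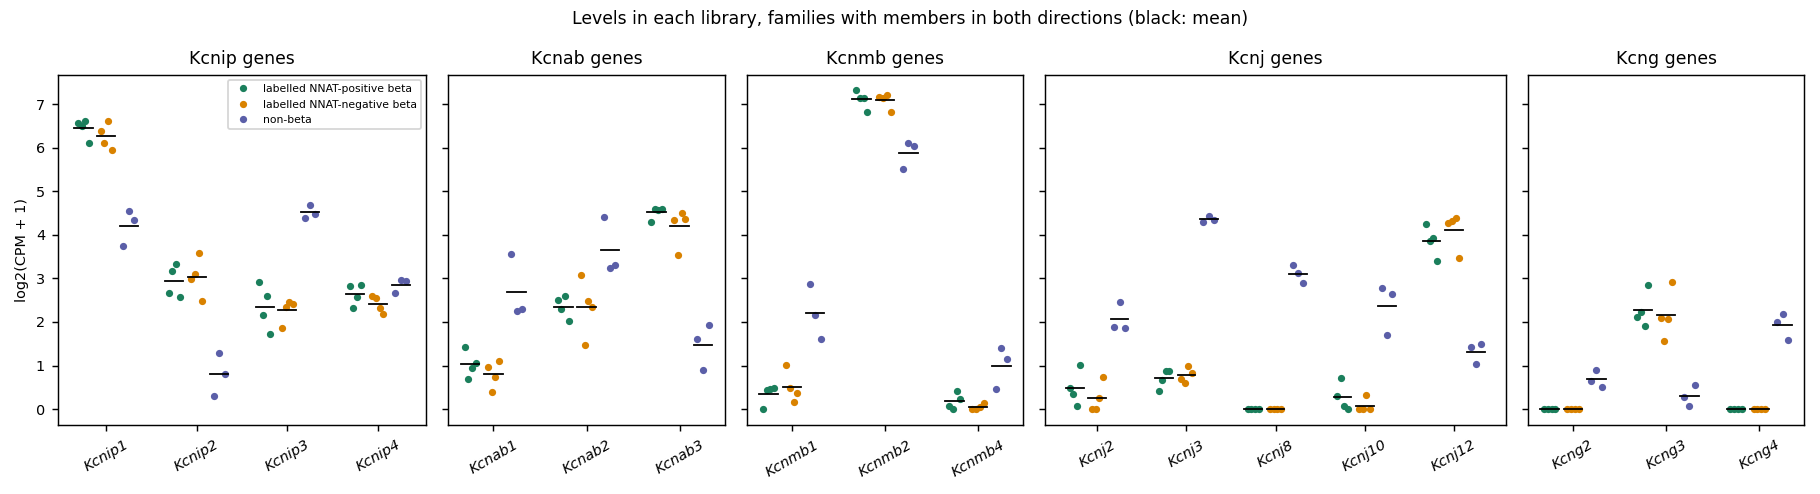
Level in each library (y axis, log2 of CPM plus 1) of members of the 5 families with calls in both directions, with green points for libraries labelled NNAT-positive, orange for NNAT-negative, blue for non-beta and a black bar at each group's mean of the plotted values. *Kcnip1*, *Kcnip2*, *Kcnab3*, *Kcnmb2*, *Kcnj12* and *Kcng3* sit higher in all 8 beta cell libraries, and *Kcnip3*, *Kcnab1*, *Kcnj3*, *Kcnj8* and *Kcng4* higher in all 3 non-beta libraries.

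RefSeq promoter windows (GRCm38.p6) were found for 67 of the 89 members, 9 of those higher in beta cells and 20 of those higher in non-beta cells. The 250 bases before the start are given for 5 members, read 5′ to 3′ on the gene's strand: *Kcnk16* as the most abundant member (chr14:20269270-20269519, minus strand), *Kcnh1* (chr1:192190527-192190776, plus) and *Kcnf1* (chr12:17176889-17177138, minus) as genes higher in beta cells, and *Kcnj3* (chr2:55435720-55435969, plus) and *Kcnj8* (chr6:142571615-142571864, minus) as genes higher in non-beta cells. Capitals mark a match, on either strand, to one of the motifs searched, which were TATAAA (the TATA box), GGGCGG (the GC box), TGACGT (the core of a cAMP response element), TGCTGA (part of a Maf site), TAATTA (a homeodomain site), TGTTTAC (a forkhead site) and CATCTG (an E-box), and no matches overlap in these windows.
Kcnk16: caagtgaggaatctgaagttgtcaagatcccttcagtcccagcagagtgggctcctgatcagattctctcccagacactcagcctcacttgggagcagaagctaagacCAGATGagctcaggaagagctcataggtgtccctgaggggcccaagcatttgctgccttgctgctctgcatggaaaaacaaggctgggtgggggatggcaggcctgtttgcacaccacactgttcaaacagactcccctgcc
Kcnh1: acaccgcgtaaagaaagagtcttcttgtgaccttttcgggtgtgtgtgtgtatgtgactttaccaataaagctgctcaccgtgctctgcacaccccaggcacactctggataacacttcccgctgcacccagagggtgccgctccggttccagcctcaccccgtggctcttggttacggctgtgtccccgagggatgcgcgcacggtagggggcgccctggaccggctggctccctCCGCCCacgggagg
Kcnf1: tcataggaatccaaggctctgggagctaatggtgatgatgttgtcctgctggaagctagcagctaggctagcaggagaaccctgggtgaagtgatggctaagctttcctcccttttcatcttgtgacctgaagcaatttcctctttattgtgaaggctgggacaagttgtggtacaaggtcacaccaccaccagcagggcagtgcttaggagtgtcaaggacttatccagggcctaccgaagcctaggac
Kcnj3: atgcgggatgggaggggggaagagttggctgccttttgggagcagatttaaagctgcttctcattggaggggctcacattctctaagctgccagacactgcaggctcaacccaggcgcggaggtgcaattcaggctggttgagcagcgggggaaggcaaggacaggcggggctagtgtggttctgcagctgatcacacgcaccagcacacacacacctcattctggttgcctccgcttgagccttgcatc
Kcnj8: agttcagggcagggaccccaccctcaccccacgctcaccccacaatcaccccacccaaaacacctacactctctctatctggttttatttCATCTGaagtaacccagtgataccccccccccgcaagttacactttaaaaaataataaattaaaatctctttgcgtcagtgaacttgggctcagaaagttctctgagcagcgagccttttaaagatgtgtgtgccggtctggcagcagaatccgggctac

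The *Kcnk16* window holds 1 match to CATCTG on the other strand, starting 142 bases before the start, and no CG pair. *Kcnj8* holds CATCTG on the strand shown, 160 bases before the start. *Kcnh1* holds GGGCGG on the other strand, 14 bases before the start, and 17 CG pairs. Neither *Kcnf1* nor *Kcnj3* holds any of these letters in this window. Counting windows, since a gene can have several, GGGCGG occurred in 41 of the 92 members' windows (44.6%) and in 32.7% of all 32851 windows, CATCTG in 15.2% and 14.4%, TGCTGA in 14.1% and 16.1%, TGACGT in 4.35% and 6.47%, and TATAAA in 3.26% and 12.4%. TAATTA, which reads the same on both strands, and TGTTTAC occurred in 0 members' windows and in 4.84% and 3.17% of all windows. Of the windows of members higher in beta cells 6 of 11 held GGGCGG, and of those higher in non-beta cells 11 of 30. Counted by gene, these were 6 of 9 and 11 of 20, with 59.7% of the 67 members and 35.4% of all genes with a window.

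The comparison that the series was made for, between the beta cell fractions of the same mice, called 0 members higher and 0 lower in the libraries labelled NNAT-positive, where edgeR called 0.0459% of all tested genes higher and 0% lower. DESeq2 also called 0 members by both criteria, and its share of all tested genes is not given here. The study, which used DESeq2, reported genes in both directions between these fractions at the same thresholds. At an unadjusted p under 0.05, edgeR had 3 members higher (4.55%, with 4.82% of all tested genes) and 0 lower (0.746% of all tested genes). Among the 37 members with a mean of at least 1 CPM in beta cells the log2 fold changes ran from -0.52 (*Kcnn4*) to 1.19 (*Kcnc2*), with SEs of 0.069 to 0.78, and 32 of the 37 lay within 0.5 of 0.

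*Kcnk3* had the smallest p of the members in this comparison. It had 4.55, 6.74, 6.41 and 5.59 CPM in cells labelled NNAT-positive and 3.89, 2.98, 3.44 and 2.76 CPM in cells labelled NNAT-negative, higher in the labelled positive library in 4 of 4 mice and with no overlap between the fractions (log2 fold change 0.83, SE 0.17, unadjusted p = 0.00062, adjusted p = 0.174 by edgeR). DESeq2 gave a log2 fold change of 0.79 with an adjusted p of 0.000603. The direction follows the labels and turns if the fractions are named the other way round. *Kcna5* had 1.43, 2.06, 2.12 and 1.23 CPM in cells labelled NNAT-positive and 0.546, 0.518, 0.638 and 1.585 CPM in cells labelled NNAT-negative, higher in 3 of 4 mice (log2 fold change 1.17, SE 0.44, unadjusted p = 0.0235, adjusted p = 0.786). *Kcnk5* had 8 counts in all, 2 labelled positive libraries above 0 and 0 labelled negative ones (unadjusted p = 0.0361, adjusted p = 0.845). All 3 genes are among those higher in non-beta cells. In the labelled positive libraries the summed alpha cell markers were 2226 to 3527 CPM against 1053 to 1920 CPM, those of delta cells 1402 to 2489 against 543 to 1046 CPM and those of pancreatic polypeptide cells 299 to 421 against 89.0 to 159 CPM, each higher in 4 of 4 mice. Also higher in 4 of 4 mice were the summed markers of endothelial cells, at 0.2617 to 7.809 against 0.1093 to 1.024 CPM, of macrophages and leukocytes, at 0.7915 to 4.747 against 0 to 1.304 CPM, and of Schwann cells and neurons, at 9.714 to 16.38 against 6.485 to 12.39 CPM. Of the single markers, 0 of 5 endothelial, 1 of 4 macrophage and leukocyte and 1 of 3 Schwann cell and neuron markers were higher in all 4 mice. Acinar markers, at 5.958 to 1288 against 30.61 to 279.9 CPM, were higher in 3 of 4 mice, as were ductal markers. Summed markers of pericytes and fibroblasts were higher in 2 of 4 mice and the epsilon cell marker in 1 of 4. The part of these cells in the 3 values was not tested.

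For the most abundant members the fitted difference between the fractions was small. The log2 fold change was 0.066 (SE 0.081) for *Kcnk16*, 0.025 (SE 0.12) for *Kcnmb2*, 0.15 (SE 0.069) for *Kcnh2* and 0.20 (SE 0.11) for *Kcnn3*. On the scale of log2 of CPM plus 1, 6 of the 37 members were above 0 in all 4 mice (*Kcnk16*, *Kcnh2*, *Kcnk12*, *Kcnk13*, *Kcnk3* and *Kcnc2*), 1 was below 0 in all 4 (*Kcnj12*) and 30 were mixed. *Kcnk16* was among the first with differences of 0.023 to 0.11 only. The share of all genes with 1 direction in all 4 mice was not taken, so no excess is read from these counts. The median fitted log2 fold change was 0.053 over all tested genes and 0.10 over the tested members.

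**Figure D4:**
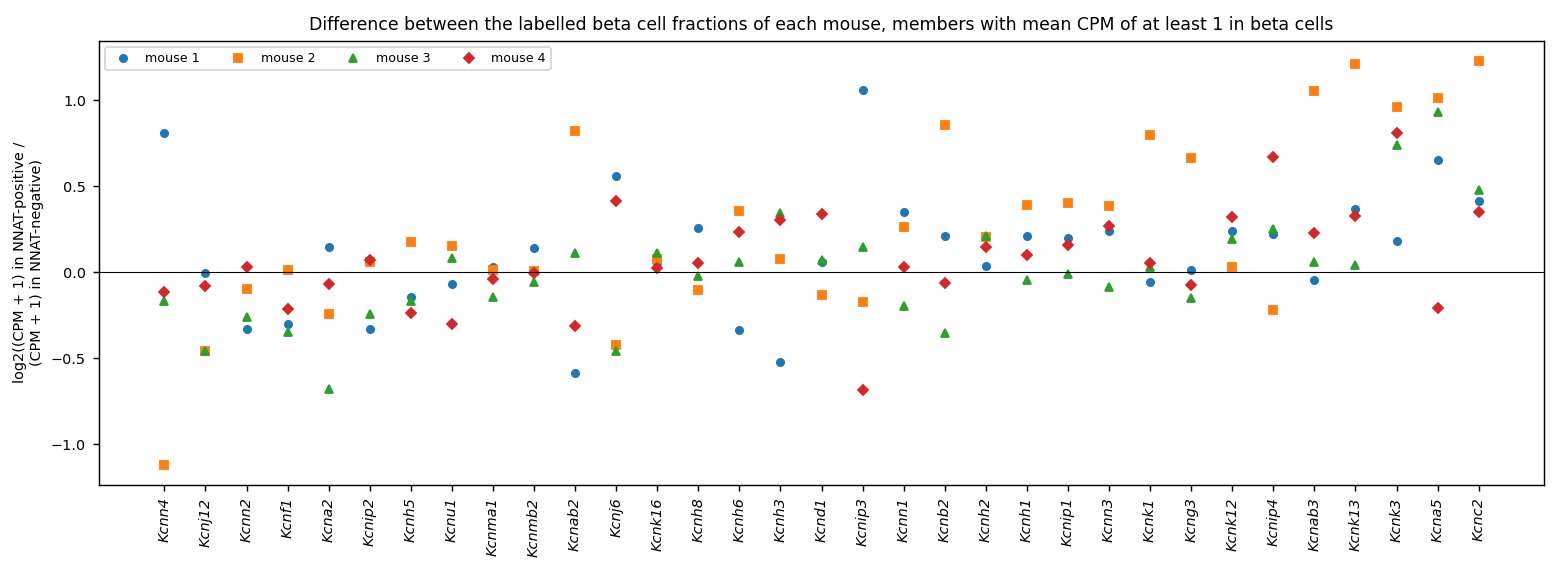
Difference between the labelled NNAT-positive and NNAT-negative library of each mouse (y axis, log2 of the ratio of CPM plus 1) for 33 of the 37 members with a mean of at least 1 CPM in beta cells (x axis, ordered by the fitted log2 fold change), with 1 symbol per mouse. *Kcnk3* lies above 0 in all 4 mice, at 0.183 to 0.958, and most members drawn have mice on both sides of 0.

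For several channels 1 mouse stood apart in both of its beta cell fractions. *Kcnh6* had 43.3, 44.1, 37.1 and 95 CPM in cells labelled NNAT-positive and 54.8, 34.2, 35.5 and 80.8 CPM in cells labelled NNAT-negative, so mouse 4 was the highest in both fractions. *Kcnh5* was highest in mouse 1 in both fractions, with 8.005, 3.5, 3.32 and 2.9 CPM in cells labelled NNAT-positive and 8.97, 2.98, 3.855 and 3.61 CPM in cells labelled NNAT-negative. *Kcnh1* and *Kcnj12* were lowest in mouse 4 in both. Of the 37 members with at least 1 CPM in beta cells, 18 (48.6%) had mouse 4 outside the range of the other mice in both fractions, 8 above and 10 below, where 50.4% of all 12545 genes at that level did. Mouse 1 gave 1 such member (2.7%, with 15.6% of all genes), mouse 2 gave 5 (13.5%, with 20% of all genes) and mouse 3 gave 8 (21.6%, with 13.3% of all genes). With total counts in place of TMM the number for mouse 4 was 11 (29.7%), below the 51% of all genes, so the members were close to the background with TMM only, and *Kcnk16*, *Kcnmb2*, *Kcnma1*, *Kcnn3*, *Kcnh2*, *Kcnip1*, *Kcnip2* and *Kcnk12* were no longer below the other mice. Mouse 4 has no non-beta library. Without it the comparison with non-beta cells called 11 members higher and 23 lower, and 1052 and 3188 of all 16913 genes tested in that fit.

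Other genes that move potassium or partner with its channels were taken from a list of 29, of which 26 were tested. Of these, 3 were higher in beta cells, where 6.22% of all 17424 tested genes were. The number higher in non-beta cells was 10, where 18.9% of all tested genes were. *Hcn4* and *Hcn2*, pacemaker channels opened by hyperpolarisation, rose in beta cells. *Hcn4* had 21.8 to 39 CPM in the beta cell libraries and 4.35, 9.795 and 4.945 CPM in the non-beta libraries (log2 fold change 2.39, SE 0.19, adjusted p = 2.56e-06), and *Hcn2* had 25.8 to 53.8 CPM in the beta cell libraries and 18.7, 23.7 and 22.9 CPM in the non-beta libraries (log2 fold change 1.02, adjusted p = 7.65e-05). *Slc12a7*, a potassium-chloride cotransporter, had 112 to 176 CPM in the beta cell libraries and 63.7, 71.85 and 74.3 CPM in the non-beta libraries (log2 fold change 1.24, adjusted p = 7.08e-07), while the cotransporter *Slc12a4* was higher in non-beta cells (log2 fold change -2.09, adjusted p = 2.39e-05). *Abcc8*, the sulfonylurea receptor of the beta cell's ATP-sensitive channel, and *Amigo1*, a partner of delayed rectifiers, rose by less than 2-fold, with log2 fold changes of 0.71 (adjusted p = 0.000676) and 0.70 (adjusted p = 4.2e-05). *Dpp6* and *Dpp10*, the membrane partners of A-type channels, were higher in non-beta cells. *Dpp6* had 16.7 to 35.3 CPM in the beta cell libraries and 89, 148 and 133.5 CPM in the non-beta libraries (log2 fold change -2.30, adjusted p = 4.73e-07), and *Dpp10* had 17.7 to 32.1 CPM in the beta cell libraries and 126, 176 and 133 CPM in the non-beta libraries (log2 fold change -2.63, adjusted p = 3.02e-07). The others that were higher in non-beta cells included *Abcc9*, *Lrrc55*, *Fxyd1*, *Fxyd2* and *Fxyd5*.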

How the data were processed

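The members and the gene lists were chosen with earlier results of these data known. The authors aligned paired reads of 75 bp from polyA RNA libraries to mm10 with STAR 2.7.1a on gencode release 25 and deposited counts per gene without normalisation, in whole numbers. The strand setting of the counting is not given in the sources used here, so reads of overlapping antisense genes cannot be told apart. DESeq2 1.32.0 also appears in the submitters' processing notes.

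Here the counts were fitted with edgeR 4.0.16 in R 4.3.3 (TMM, filterByExpr by fraction, quasi-likelihood test) with the mouse as a block. The labels number the libraries, and the study gives each replicate as 1 mouse. That the same number in different fractions is the same mouse was assumed, as the study does not state it. Over the beta cell pairs, deviations from the fraction's mean correlated at 0.314 on average within mice and -0.103 between mice. The values within mice were 0.182 to 0.658, the highest in mouse 4. Between mice, pairs among mice 1 to 3 had 0.0055 to 0.093 and pairs with mouse 4 had -0.322 to -0.230. Taking out each fraction's mean pulls the mean value between mice below 0 where that within mice is above 0. Between non-beta and beta cell libraries of the same mouse the correlation was 0.032 to 0.125. SEs are the log2 fold change over the square root of *F*. Alternatives used DESeq2 1.42.0, other scalings and filters, and each mouse left out. None of the 55 pairs of libraries was identical.

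Genes were named by p among called members (all 11 higher in beta cells and the first 12 lower), by level per kb (the first 8 in beta and in non-beta cells), by an unadjusted p under 0.05 between the beta cell fractions, and from a fixed list. Other called members, genes in the paragraphs on mice and promoters, and members just missing a threshold were named after their values were seen. Some genes counted in the totals are not reported here by name or drawn in the plots. Coordinates, exonic lengths and overlaps came from gencode release 21 (GRCm38), which held 89 of 89 members, and promoters and gene starts from RefSeq. Counting precision is the floor of 3 counts per library, which covers counting error only.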

Additional observations from a re-analysis of the deposited data

Results flagged for a closer look

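A library was set apart where its gap to the nearest of the other 3 in its group, over the group's range, was above 0.829. That limit is met by about 1 in 20 tests where values are independent and normally distributed. The tests here share libraries and mice, and the rate over all genes was not taken, so no excess is read from the count. Of 61 such tests 9 met the limit. For mouse 1 these were *Kcnh5* at 8.005 CPM in the library labelled NNAT-positive (others 2.90 to 3.50) and 8.974 CPM in that labelled NNAT-negative (others 2.98 to 3.85), *Kcnab3* at 18.71 CPM (others 22.7 to 23.3) and *Kcnn4* at 1.713 CPM (others 0.502 to 0.707), both labelled NNAT-positive. For mouse 4 they were *Kcnh6* at 94.99 CPM (others 37.1 to 44.1) and *Kcnh1* at 34.9 CPM (others 58.2 to 61.7), labelled NNAT-positive, and *Kcna5* at 1.585 CPM (others 0.518 to 0.638), labelled NNAT-negative. The other two were *Kcnj6* in mouse 3, labelled NNAT-positive, at 7.092 CPM (others 7.92 to 8.01), and *Kcnk2* in mouse 2, labelled NNAT-negative, at 1.248 CPM (others 0 to 0.082).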

How the results depend on the processing

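Under the alternatives to scaling, filtering, tool and mouse, 28 to 35 of the 35 calls between beta and non-beta cells remained. Without the replicate block 33 remained, with 11 members higher in beta cells and 25 higher in non-beta cells, *Kcnj2* and *Kcnmb4* lost their call, and the adjusted p of *Kcnk16* went from 0.000219 to 0.0238. Of all 17424 tested genes 1052 and 3368 were called without the block, and 1083 and 3294 with it. Requiring the call in each beta cell fraction separately left 11 and 17 members, and the share of all genes that met this is not given. No alternative called a member between the beta cell fractions by both criteria, and the shares of all genes called there are not given. Without the length correction, 5 of the 8 highest members in non-beta cells remained among the highest 8. With total counts, an alternative chosen after seeing the data, mouse 4 stood outside the other mice in both fractions for 11 members (29.7%) instead of 18 (48.6%), where the share of all genes was 51% instead of 50.4%. The lower bounds without mouse 1 were also added after seeing the data.

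The difference between the fractions for *Kcnmb2*, 0.025 on the log2 scale, turned to -0.013 with DESeq2, -0.013 with RLE size factors, -0.015 without the most abundant genes, -0.0092 without a filter and -0.018 with the beta cell libraries alone. With 1 mouse left out it ran from -0.018 to 0.053 and that of *Kcnh6* from -0.020 to 0.22. Likewise the log2 fold changes between beta and non-beta cells ran from -0.022 to 0.81 for *Kcna2*, -1.44 to 3.85 for *Kcnj5* and -0.19 to 0.064 for *Kcnk12*, none of which was called with all mice, and *Kcna2* had an adjusted p of 0.00494 without mouse 3. The causes were not tested. With 3 non-beta libraries and 3 counts as the floor, members near 0 are limited by depth.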
